A study of Drosophila melanogaster with 8 samples.

Results

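RNA of the Drosophila melanogaster larval fat body was measured by RNA sequencing in 8 libraries, 2 in each of 4 groups. OreR larvae served as wild type in 3 groups, 1 fed, 1 kept without food for 4 h and 1 for 16 h. The fourth group carried the allele CPSF5H11 on both chromosomes (CPSF5H11/CPSF5H11) and was starved for 16 h. The labels name no driver or transgene, do not give the strain in which the mutant allele was kept and do not say whether replicates came from separate animals, so the spread between replicates may be technical. Fed mutant larvae were not analysed here, so an effect of the genotype and an effect of the genotype under starvation cannot be told apart.

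The genes described are those in which 1 annotated transcript took a larger part of the gene's RNA in both mutant libraries than in any wild-type library. For every transcript the share was its TPM, an abundance normalised for transcript length and library size, divided by the summed TPM of all transcripts of that gene. A gene was kept when its sum was 3 TPM or more in all 8 libraries and when the lower share of 1 transcript in the 2 mutant libraries was at least 20 points above its highest share in the 6 wild-type libraries. Genes whose symbols mark autophagy factors, CPSF subunits, ribosomal proteins, respiratory chain, proton pump, translation initiation or proteasome subunits were left out by the rule. The rule kept 44 genes of the 17253 with a transcript in the table, which is 2.78% of the 1583 genes with at least 2 transcripts that met the minimum. The same rule applied to the other groups gave 27 genes for the fed wild type (1.71%), 1 for 4 h (0.0632%) and 4 for 16 h (0.253%). The transcript that exceeded the margin is called the gained transcript, and the other transcript of highest mean share in the wild type is called the main wild-type transcript. Because the mutant shares chose these genes, every mutant value below is a description without a test.

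Most animal genes can end their messenger RNA at more than 1 place. The nascent transcript is cut and polyadenylated at a site chosen by a large complex, and the choice sets the length of the 3' untranslated region (3' UTR), which carries binding sites that act on stability, translation and localisation, or even the last coding exon. CPSF5 is the fly form of the small subunit of cleavage factor Im, which pairs with CPSF6 and binds the RNA upstream of the cut. In human cells, depletion of this subunit is known to shift many messages towards cut sites nearer the stop codon. Alternative promoters and alternative splicing make isoforms too, so the gained transcript of a gene may differ from the main one at its start, inside or at its end.

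The RNA of the targeted gene itself was low in every starved library. Cpsf5, summed over its 2 transcripts and scaled, stood at 11.98 and 10.9 TPM in the fed libraries, 6.47 and 3.62 after 4 h, 5.06 and 4.20 after 16 h, and 3.60 and 3.01 in the mutant. The mutant values lay below all 6 wild-type values, by little against the starved ones, and what the allele does to the protein cannot be read from them. Fat body markers, among them the larval serum proteins and the lipid carrier apolpp, were all found (11 of 11), none at 0. Their summed level was 19015 to 37625 scaled TPM in fed, 53249 to 92956 in 4 h, 73126 to 75895 in 16 h and 3160 to 4320 in mutant libraries. The low mutant sum came from Lsp1alpha, Lsp1beta, Lsp2, Fbp1 and Fbp2, while others were not lower, such as apolpp (2335 and 1732 in the mutant against 1917 and 1450 in wild type at 16 h), Mtp (63.4 and 46.9 against 32.3 and 35.1) and FASN1 (753 and 221 against 124 and 110). Midgut markers summed to 121 to 210 in fed, 0.402 to 0.640 in 4 h, 0.949 to 6.30 in 16 h and 63.9 to 422 in mutant libraries, none of the 9 at 0 in both mutant libraries. Muscle markers summed to 118 to 175, 16.5 to 30.5, 27.3 to 39.0 and 58.2 to 96.3 in the same order, and salivary gland markers to 385 to 1223, 22001 to 23856, 13148 to 39049 and 132 to 790. Most of the salivary gland sum was ng1 alone in fed (339 and 1218) and mutant libraries (785 and 127). In the mutant, 5 of the 8 salivary gland markers were below 1 in both libraries. A bulk level cannot tell fewer cells of a type from less RNA per cell, and the part of these shifts in the isoform shares was not tested.

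Most gained transcripts were minor forms in the wild type, though slmb-RC, Akt-RE, CG1927-RA, Pex3-RB and LanB1-RB took about 1/2 of their gene in at least 1 wild-type library. Their median share was 10.4% in fed, 7.45% in 4 h and 8.23% in 16 h libraries, and 56.2% in the mutant (medians over the 44 genes of the group means). The main wild-type transcript went the other way, with medians of 73.2%, 75.5% and 76.9% in the wild-type groups and 26.1% in the mutant. In 22 genes the gained transcript exceeded 50% in both mutant libraries, and in 12 it stayed at or below 10% in all 6 wild-type libraries. Replicates of a group usually lay close together in points, with a median difference in gained share of 3.96 points in fed, 4.40 in 4 h, 1.80 in 16 h and 4.00 in mutant libraries. Over 3487 transcripts of 5% to 95% mean share in the genes the rule could choose, the medians were 4.06, 6.12, 3.83 and 3.28. The rule takes the lower mutant and the highest wild-type share, so it favours close replicates. Where shares were small such gaps could be several-fold, as for CG5850-RD (9.79% and 3.64% in fed, 12.2% and 2.60% in 4 h). In CG5850-RD and Mkk4-RC the first library in accession order was the higher in all 3 wild-type groups. In CG14464-RD it was the lower. What this order stands for is not known. The widest pair of mutant libraries was that of CG12012, which differed by 38.8 points. Margins ran from 20.4 to 90.7 points with a median of 28.3, and 20 genes were at 30 points or more. Sequencing depth is unknown for TPM values, and the genes were of modest level, with a mean of 5.96 to 706 TPM and a median of 12.6 against 17.2 over the 1583 genes, so the counting precision of the shares is not known.

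**Figure D1:**
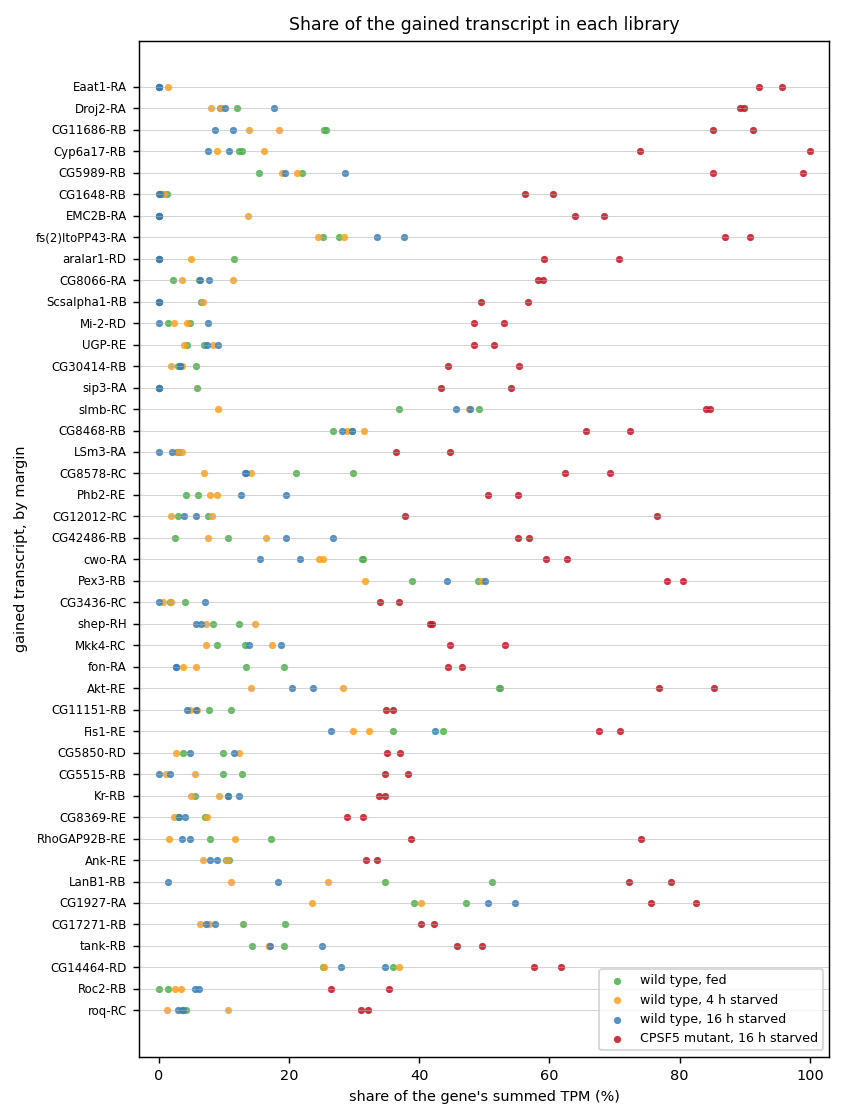
Share of the gained transcript (%, x axis) in each of the 8 libraries for the 44 genes, ordered by margin from the top, with 1 point per library coloured by group. The red mutant points lie to the right of every wild-type point by at least 20 points in each row, as the rule demands, and the wild-type groups overlap in most rows.

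The genes just inside and just outside the threshold were alike in size. CG14464-RD (20.7 points), Roc2-RB (20.4) and roq-RC (20.4) were the nearest inside, and ClpP-RB (19.98), M7BP-RF (19.97) and Sec61gamma-RB (19.8) the nearest outside. A further 3 genes, Rpn2 (29.0 points), ND-B16.6 (24.0) and Vha68-2 (20.1), met the share rule and were left out for their symbols.

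What the rule did not use is where in the gene the transcripts differ. With ends within 50 nt counted as the same, the gained transcript ended at another place than the main wild-type one in 28 of 44 genes (63.6%), and farther downstream (distal) in 22 of those 28 and farther upstream (proximal) in 6. As background, the 2 transcripts of highest mean share differed in 3' end in 43.8% of the 1583 genes, and the less used one was the distal one in 64.2% of those. In 24 of the 44 genes the 3' end was the only end that differed (54.5%, against 32.3% of the 1583), in 4 both ends differed, in 8 only the 5' start did (18.2% against 27.4%), and in 8 neither did. The 27 genes that the rule picked for the fed wild type looked different, with another 3' end in 7 (4 distal, 3 proximal) and another 5' start in 16. No test was made of these shares. The distal excess came from the genes of smaller margin: at 30 points or more there were 6 distal and 5 proximal genes, and with a minimum of 10 TPM there were 5 and 3.

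**Figure D2:**
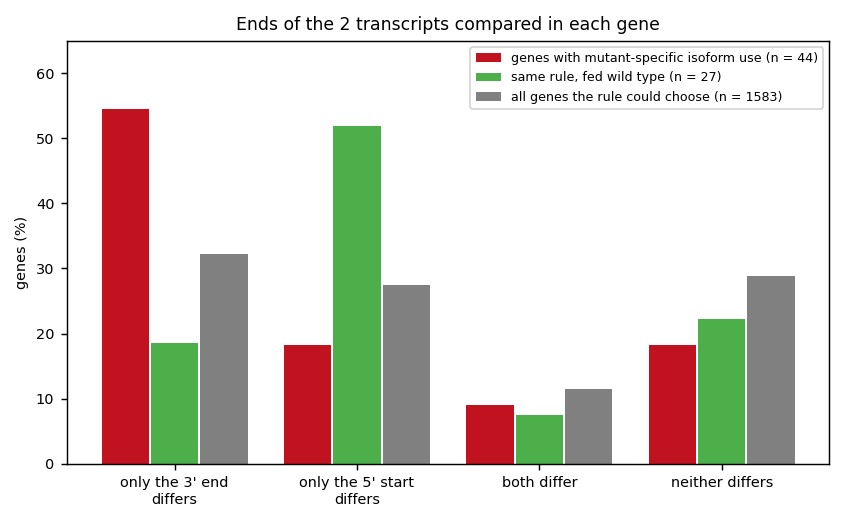
Percentage of genes (y axis) in which only the 3' end, only the 5' start, both or neither differ by more than 50 nt between the 2 transcripts compared, for the 44 genes, for the 27 chosen by the same rule in the fed wild type and for all 1583 genes the rule could choose. The 3' end alone differs in 54.5%, 18.5% and 32.3% of them, and the 5' start alone in 18.2%, 51.9% and 27.4%.

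The annotated coding sequence of the gained and main transcripts was mostly the same. It was so in 31 of 44 genes, those with the same 3' end included (70.5%, against 61.4% of the 1583). Of the 28 other 3' ends, 21 lay in the same last exon. In 18 genes the pair shared both last exon and coding sequence, so that only the 3' UTR length changed at that end, longer in 13 by 78 to 1875 nt (median 542) and shorter in 5 by 128 to 943 nt. When the shares were summed over all transcripts that end at the same place, the margin of 20 points held in 28 of the 44 genes, and when summed over those that start at the same place it held in 10. Both held in CG42486 and Ank, and neither in 8 genes.

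**Figure D3:**
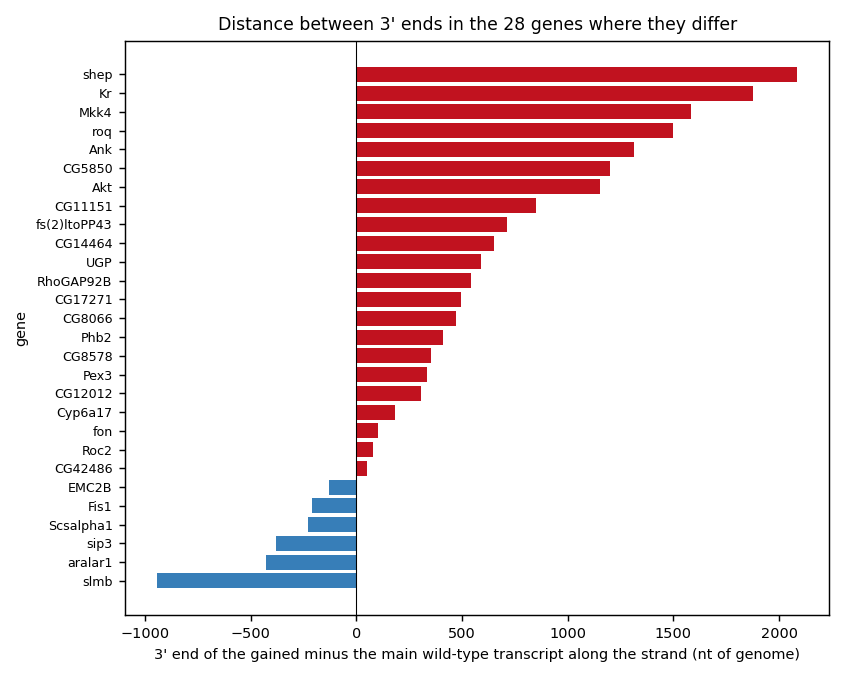
Distance in nt of genome along the strand (x axis) from the 3' end of the main wild-type transcript to that of the gained transcript, for the 28 genes in which it is more than 50 nt. Bars to the right (red, 22 genes) are ends farther downstream, up to 2087 nt in shep, and bars to the left (blue, 6 genes) ends farther upstream, up to 943 nt in slmb.

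The median margin of the 6 genes with a proximal gained end was 40.1 points, against 25.6 for the 22 distal genes, and the median of their mean wild-type shares was 2.51%, against 9.15%. Of the 5 genes whose gained transcript was listed at 0 in at least 4 wild-type libraries, 4 had a proximal end (EMC2B, aralar1, Scsalpha1 and sip3), and the fifth was Eaat1. A value of 0 TPM can be a failed estimate when 2 transcripts share nearly all of their sequence, so these zeros are given as listed.

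The gene aralar1, which encodes the aspartate-glutamate carrier of the inner mitochondrial membrane, lies on 3R (minus strand, 30445635 to 30455867, BDGP6.54 annotation). Its gained transcript, aralar1-RD, has the same coding sequence as aralar1-RA and a 3' UTR of 140 nt in place of 570. Its share was 0 and 11.5% in fed, 0 and 4.89% in 4 h, 0 in both 16 h and 70.7% and 59.2% in mutant libraries. In scaled TPM aralar1-RD stood at 29.7 and 19.6 in the mutant and at no more than 2.76 in any wild-type library. In contrast aralar1-RA, 1 of 6 transcripts of the gene, went from 8.70 and 8.20 in wild type at 16 h to 3.11 and 3.93. Mutant and wild-type values did not overlap for either transcript, and the difference was larger for aralar1-RD. Apart from aralar1-RD, the share at this start was split evenly in every library between aralar1-RA and the rest. The values of aralar1-RA alone therefore hold only part of that fall.

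Scsalpha1, the alpha subunit of succinyl-CoA synthetase in the citric acid cycle (3L, plus strand, 3814211 to 3818383), was the most abundant of the proximal genes. Scsalpha1-RB, with a 3' UTR of 155 nt against 384 for RA, took 0 and 6.53% in fed, 0 and 6.80% in 4 h, 0 and 0 in 16 h and 56.7% and 49.5% in mutant libraries. The gene as a whole differed little, with a log2 difference between mutant and wild type at 16 h of 0.19. The mutant libraries held 41.5 and 48.4 scaled TPM of the short form and 31.6 and 49.4 of the long one, against 0 and 78.2 or 70.5 in wild type at 16 h.

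EMC2B, a subunit of the endoplasmic reticulum membrane complex that inserts membrane proteins (3R, minus strand, 16990334 to 16991878), had EMC2B-RA with a 3' UTR of 128 nt in place of 256. It was listed at 0 in every wild-type library but the second of 4 h, where its share was 13.7%, and it took 63.9% and 68.3% in the mutant. The annotated opposite-strand gene MESK4 covers 86 of the 128 bases that tell the pair apart, and a related gene of this complex may share reads with it, so the split is uncertain. The ubiquitin ligase gene sip3, the fly Hrd1 of endoplasmic reticulum-associated degradation, had sip3-RA with 64 nt of 3' UTR in place of 444. That form was listed at 0 in 5 wild-type libraries and at 5.86% in the second fed one, and took 43.3% and 54.0% in the mutant.

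In slmb, the F-box protein of SCF ubiquitin ligases (3R, minus strand, 21119252 to 21127485), the short form was already common. Its slmb-RC, 943 nt shorter than slmb-RA in the 3' UTR, took 36.9% and 49.1% in fed, 9.07% and 47.6% in 4 h, 45.7% and 47.9% in 16 h and 84.0% and 84.7% in mutant libraries. The first 4 h library stood apart from the other 5 wild-type ones. In every other wild-type library slmb-RC was above slmb-RA, but it stayed below 1/2 of the gene, at no more than 49.1%. In level slmb-RA was lower in the mutant, at 0.638 and 0.654 scaled TPM against 3.23 and 3.03 in wild type at 16 h. The gene has 3 transcripts, and the third was listed at the same level as slmb-RA in every library, so it was lower too. Fis1, which acts in mitochondrial fission, completes the proximal genes with Fis1-RE, which ends 208 nt upstream in another last exon and took 26.5% to 43.7% in the wild type and 67.5% and 70.9% in the mutant.

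**Figure D4:**
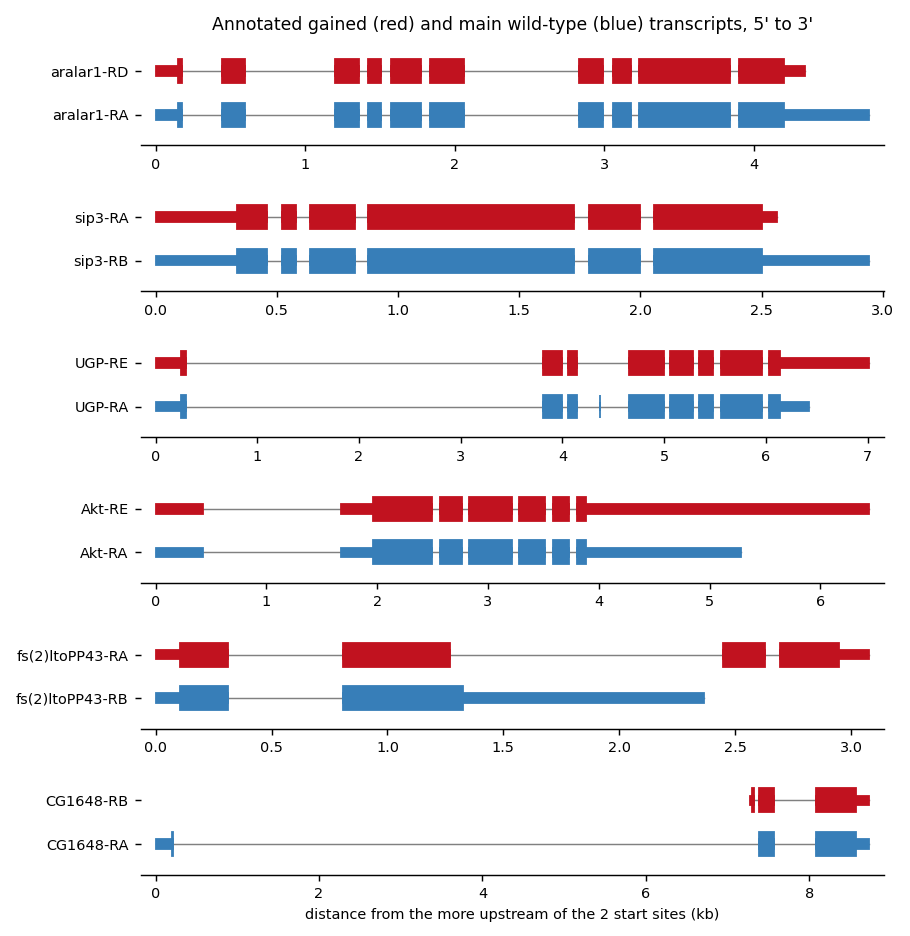
Exon maps of the gained (red) and main wild-type (blue) annotated transcripts of 6 genes, drawn 5' to 3' to scale within each gene, with distance in kb from the more upstream start on the x axis, thick boxes for coding and thin boxes for untranslated exons and lines for introns. The gained form ends earlier in aralar1 and sip3, later in UGP and Akt, ends in further exons in fs(2)ltoPP43 and starts downstream in CG1648.

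The distal genes were the most numerous, and the longest extensions were those of shep, Kr and Mkk4. Kr, the zinc finger repressor Krüppel, lies on 2R (plus strand, 25226611 to 25231394) and its Kr-RB has 2561 nt of 3' UTR against 686 for Kr-RA. Its share was 10.6% and 5.50% in fed, 9.20% and 5.01% in 4 h, 10.7% and 12.3% in 16 h and 34.7% and 33.9% in mutant libraries. In level the long form was not higher, at 0.960 and 1.11 scaled TPM in the mutant and 2.75 and 2.35 in wild type at 16 h. The short form was at 1.81 and 2.16 in place of 23.0 and 16.7, so the larger share of the long form went with less of the short one and not with more of the long one.

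Akt, the protein kinase downstream of the insulin receptor (3R, plus strand, 16099228 to 16105670), differed from Kr in that both forms differed in level. Akt-RE, with 2556 nt of 3' UTR against 1401 for Akt-RA and the same coding sequence, took 52.5% and 52.3% in fed, 28.2% and 14.1% in 4 h, 23.7% and 20.5% in 16 h and 85.2% and 76.8% in mutant libraries. The fed libraries lay above all starved wild-type ones. In level Akt-RE was at 9.66 and 7.46 scaled TPM in the mutant and at no more than 3.59 in the wild type, and Akt-RA was at 0 and 0.472 in the mutant against 7.35 and 7.62 in wild type at 16 h.

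Mkk4, a kinase that activates JNK (3R, minus strand, 8646172 to 8650796), had Mkk4-RC with a 3' UTR 1585 nt longer than that of Mkk4-RB. The share of Mkk4-RC was 13.2% and 8.97% in fed, 17.4% and 7.30% in 4 h, 18.8% and 13.8% in 16 h and 44.7% and 53.2% in mutant libraries. That of Mkk4-RB was at least 53.8% in fed and 4 h libraries, but 0 and 34.7% in 16 h. In the mutant it was 38.6% and 21.6%, which overlaps the 16 h wild type. The transcript of largest fall from wild type to mutant was Mkk4-RA. The RNA-binding protein gene shep (3L, minus strand, 5155821 to 5277944) had the farthest end, 2087 nt downstream of that of shep-RF, together with a start 93147 nt farther downstream and a shorter protein of 371 in place of 590 residues. The gained shep-RH took 12.2% and 8.34% in fed, 14.8% and 7.23% in 4 h, 6.46% and 5.64% in 16 h and 41.7% and 41.9% in mutant libraries. The margin of shep held for the summed 3' end (25.4 points) and was 3.06 points for the summed start.

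UGP, which makes the UDP-glucose used for glycogen (3L, minus strand, 9350867 to 9358935), kept its start, ended 590 nt downstream and lost 2 residues (518 against 520). UGP-RE was at 6.86% and 4.34% in fed, 8.31% and 3.90% in 4 h, 7.38% and 9.12% in 16 h and 48.3% and 51.5% in mutant libraries. Its level was 25.4 and 20.9 scaled TPM in the mutant and at most 3.49 in the wild type. The exons of PGRP-LF on the opposite strand cover 569 of the 596 bases in which the 2 UGP transcripts differ, so the gain depends on reads being kept apart by strand. The kit keeps strand, and the counting setting is not given in the sources used here.

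RhoGAP92B (3R, plus strand, 19905164 to 19914272) had a 3' UTR longer by 542 nt in RhoGAP92B-RE. The share was 17.3% and 7.92% in fed, 11.6% and 1.54% in 4 h, 3.57% and 4.78% in 16 h and 38.8% and 74.1% in the mutant, whose 2 libraries differed widely. CG5850-RD (2L, minus strand, 9959248 to 9963949; end 1202 nt downstream) took 9.79% and 3.64%, 12.2% and 2.60%, and 11.6% and 4.82% in the fed, 4 h and 16 h groups and 35.1% and 37.0% in the mutant. Exons of the antisense RNA gene asRNA:CR44872, annotated on the same strand as CG5850, cover 985 of the 1202 differing bases, and CG4658 on the other strand covers 732. Its call is therefore uncertain.

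CG14464-RD (2R, plus strand, 4829246 to 4830587; end 652 nt downstream) took 25.2% and 35.9%, 25.4% and 37.0%, and 28.0% and 34.8% in the same 3 groups and 61.8% and 57.7% in the mutant. Annotated transposon remnants on its strand cover 354 of its 652 differing bases. Ank, the ankyrin adaptor between the membrane and the spectrin skeleton (chromosome 4, minus strand, 115074 to 129849), had Ank-RE ending 1315 nt downstream in another last exon. Its share was 10.3% and 10.7% in fed, 10.5% and 6.86% in 4 h, 8.91% and 7.82% in 16 h and 33.5% and 31.8% in mutant libraries.

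The gene fs(2)ltoPP43 (2L, minus strand, 19792773 to 19795851) differed in its coding end. The gained form splices on to 2 further exons and encodes 367 residues, where the main wild-type form stops at 241 residues with a 3' UTR of 1039 nt. It took 27.7% and 25.3% in fed, 28.5% and 24.4% in 4 h, 37.6% and 33.4% in 16 h and 90.8% and 86.9% in mutant libraries. CG8066-RA (3R, minus strand, 14567611 to 14568847; 3' UTR 796 nt against 326) took 6.18% and 2.16%, 11.4% and 3.56%, and 7.74% and 6.39% in the wild-type groups and 58.2% and 59.1% in the mutant. Cyp6a17, a cytochrome P450 (2R, plus strand, 14873953 to 14875739), had a 3' UTR of 194 nt in place of 13. Its share was 12.8% and 12.4% in fed, 16.2% and 8.93% in 4 h, 10.8% and 7.48% in 16 h and 100% and 73.8% in mutant libraries, at a gene level of only 2.67 and 2.86 scaled TPM in the mutant, and near copies of this gene family can share its reads.

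The most abundant genes of the 44 were also distal or internal. fon, a hemolymph clotting protein made by the fat body (2L, minus strand, 19383138 to 19386205), had fon-RA ending 102 nt downstream and 12 residues shorter (565 against 577). It took 19.2% and 13.4% in fed, 5.76% and 3.70% in 4 h, 2.69% and 2.59% in 16 h and 44.4% and 46.5% in mutant libraries. Fed, 4 h and 16 h libraries did not overlap, in falling order, and the gene's level was nearly equal in mutant and wild type at 16 h (log2 difference -0.02). CG11151-RB (X, plus strand, 13739744 to 13741952), which ends 851 nt downstream, was at 11.0% and 7.77%, 5.85% and 4.72%, 5.72% and 4.33%, and 35.9% and 35.0% in the 4 groups. Its level did not differ much, 12.2 and 16.0 scaled TPM in the mutant and 18.5 and 13.5 in wild type at 16 h, while CG11151-RA went from 305 and 297 to 21.7 and 29.8. Exons of Grip91 on the opposite strand cover 269 of the 437 bases that tell this pair apart.

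The remaining distal genes had margins of 20.4 to 32.5 points. In Phb2 and CG17271 the gained form had the shorter 3' UTR (150 against 548 nt and 148 against 567 nt). Phb2, a prohibitin of the inner mitochondrial membrane, had Phb2-RE in another last exon, with 338 in place of 299 residues, at 4.17% to 19.5% in the wild type and 50.6% and 55.2% in the mutant. Pex3, needed to build peroxisomes, had Pex3-RB with 440 in place of 107 nt of 3' UTR, at 31.6% to 50.2% and then 80.4% and 78.1%. Roc2, the RING subunit of cullin ubiquitin ligases, was at 0 to 6.10% and then 35.4% and 26.5%, and roq, an RNA-binding protein of the Roquin family, which in mammals promotes decay of messages, ended 1499 nt downstream at 1.27% to 10.6% and then 31.0% and 32.1%. CG8578 (6.90% to 29.9% in the wild type, 62.4% and 69.3% in the mutant), CG12012 (1.83% to 8.18%, 76.6% and 37.7%), CG17271 (6.36% to 19.5%, 40.3% and 42.2%) and CG42486 (2.497% to 26.7%, 55.2% and 56.8%) are named without a role. In CG42486 other genes on the same strand cover 547 of 598 differing bases.

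In 8 genes only the start differed. CG1648-RB (2R, minus strand, 9810974 to 9820053) starts 7279 nt downstream of CG1648-RA and was nearly absent from the wild type, at 1.24% and 0.454% in fed, 0.736% and 0 in 4 h, 0 and 0.228% in 16 h, but took 60.5% and 56.3% in the mutant. Its level was 155 and 83.0 scaled TPM in the mutant and at most 0.785 in any wild-type library, and the gene as a whole had the highest log2 difference of the 44 between mutant and wild type at 16 h, 2.49. Mi-2, a nucleosome remodeller (3L, minus strand, 19882051 to 19910215), had Mi-2-RD, which starts 21401 nt downstream, at 4.82% and 1.35%, 4.40% and 2.37%, and 7.53% and 0 in the 3 wild-type groups and 48.4% and 53.0% in the mutant. An antisense RNA gene covers 161 of the 287 bases that tell the Mi-2 pair apart.

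The other starts moved less or lay upstream. CG30414-RB starts 119 nt upstream and took 1.92% to 5.72% in the wild type and 44.4% and 55.3% in the mutant, but at 1.73 and 1.96 scaled TPM it was no more abundant there than in wild type at 16 h (2.19 and 2.38), while CG30414-RC was at 2.16 and 1.59 in place of 66.0 and 71.5. LSm3, a Sm-like protein of the U6 snRNP, had a start 152 nt upstream at 0 to 3.59% and then 44.7% and 36.4%, and CG33108 on the same strand covers all 152 of these bases. CG3436-RC (start 120 nt upstream, 0 to 7.08%, then 36.8% and 34.0%), CG5515-RB (197 nt upstream, 0 to 12.8%, then 38.3% and 34.8%), CG1927-RA (1976 nt upstream, 23.5% to 54.6%, then 82.6% and 75.6%) and LanB1-RB of the laminin beta chain (2916 nt downstream, 1.48% to 51.1%, then 72.1% and 78.7%) complete this class.

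The last 8 genes shared both ends and differed inside, and they held 4 of the 5 largest margins. Eaat1, a glutamate transporter (2L, plus strand, 9333567 to 9341925), exchanged Eaat1-RD for Eaat1-RA, whose 5' UTR is 28 nt longer and whose protein is the same. Eaat1-RA was listed at 0 in both fed libraries, 1.48% and 0 in 4 h, 0 in both 16 h and 95.8% and 92.1% in the mutant, and Eaat1-RD went from at least 81.3% in the wild type to 0.851% and 1.01%. The gene's level differed by a log2 value of 0.36 between mutant and wild type at 16 h.

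Droj2, a DnaJ co-chaperone of Hsp70 (3R, plus strand, 13382106 to 13385283), had Droj2-RA, which keeps a 59 nt intron of Droj2-RE in its 5' UTR. The share was 11.9% and 9.45% in fed, 9.52% and 7.97% in 4 h, 10.2% and 17.8% in 16 h and 89.2% and 89.8% in mutant libraries. CG11686-RB (3R, plus strand, 13260356 to 13262227), with 68 nt more 5' UTR, took 25.7% and 25.4%, 18.4% and 13.8%, and 11.4% and 8.65% in the wild-type groups and 85.2% and 91.3% in the mutant. CG5989-RB (3L, minus strand, 8602411 to 8604149), which differs by 6 bases and 2 residues, took 22.0% and 15.5%, 21.2% and 18.9%, and 19.3% and 28.6% and then 98.9% and 85.1%. The bases that tell these pairs apart are few, 28 in Eaat1, 59 in Droj2, 68 in CG11686 and 6 in CG5989, so their split rests on short stretches of sequence.

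CG8369 (3R, plus strand, 8822008 to 8822838) was the second most abundant of the 44. CG8369-RE, which keeps a 343 nt intron and encodes 84 in place of 94 residues, took 7.08% and 3.02% in fed, 7.33% and 2.28% in 4 h, 3.16% and 4.05% in 16 h and 28.9% and 31.3% in mutant libraries. Its level did not stand out (15.9 and 25.0 scaled TPM against 16.5 and 24.3 in wild type at 16 h), and CG8369-RA went from 441 and 493 to 37.9 and 52.4. CG8468-RB keeps a 565 nt intron and took 26.8% to 31.5% and then 65.7% and 72.4%. The circadian repressor gene cwo (15.6% to 31.4%, then 62.8% and 59.5%, with 698 in place of 621 residues) and tank (14.4% to 25.0%, then 49.6% and 45.9%) complete the class.

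A larger share can come from more of 1 form or less of the other, and both occurred. Against wild type at 16 h, the gained transcript was over 2 times higher in scaled TPM in 33 genes and the main wild-type transcript was under 1/2 in 33, with both in 22, the gain alone in 11 and the loss alone in 11. These counts follow in large part from the rule, and the same count over all genes was not made. The loss-only group holds Kr, CG30414, CG11151 and CG8369 described above, in which the share of the gained form is larger without a higher level. Against the fed wild type the counts were 36 and 29. The gene totals scattered around no change, with a median log2 difference between mutant and wild type at 16 h of -0.24 (median of all 8332 genes tested 0.09), from -3.93 in CG30414 to 2.49 in CG1648, and 30 of 44 within 1 (68.2%, against 75.0% of the 1558 of these genes in the fit).

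**Figure D5:**
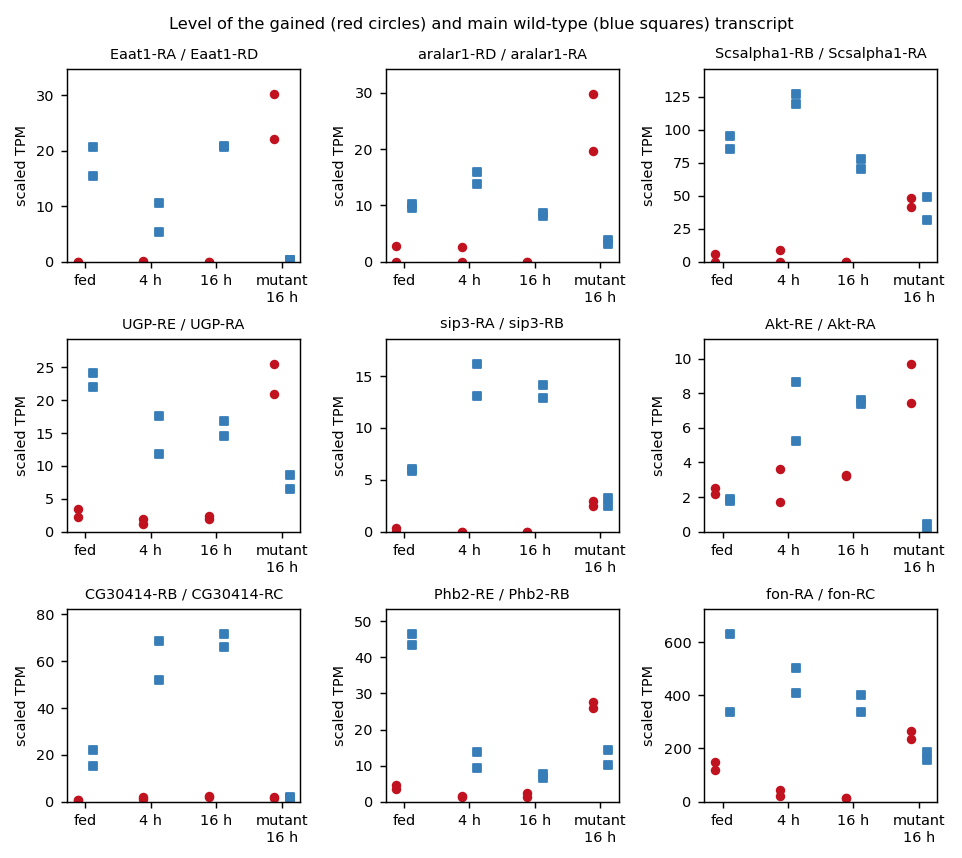
Scaled TPM (y axis, from 0) of the gained (red circles) and main wild-type (blue squares) transcript in each library of the 4 groups for 9 genes, named above each panel as gained / main. In Eaat1, aralar1 and UGP the red points stand above the blue ones in the mutant and below them in all wild-type groups, while in CG30414 the blue points are low in the mutant (2.16 and 1.59) and the red ones are at 1.73 and 1.96 there.

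The position of the genes in the genome was uneven. Of the 44, 24 lie on the third chromosome (54.5%, against 41.1% of the 1583), 15 of them on arm 3R (34.1% against 22.0%), and 2 lie on the X (4.55% against 15.7%). Cpsf5 itself lies on 3L. Of the 6 proximal genes 5 are on the third chromosome, of the 22 distal ones 10 and of the 16 with the same end 9. The labels do not give the background of the mutant stock, and genotype and strain background cannot be told apart in these libraries. Exons of another annotated gene overlapped the differing bases in 15 of the 44 genes, on the same strand in 7 and on the other in 9, and covered over 1/2 of them in 8. Without those 8 there were 17 distal, 5 proximal and 14 same ends.

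The rule used the total level of a gene only as a minimum, and between wild-type groups the total level of many of the genes changed. In limma fits over all genes with adjustment by Benjamini-Hochberg, 18 of 44 genes were higher and 8 lower after 4 h against fed (all genes 21.1% higher and 26.6% lower, and of the 1558 genes that met the rule's minimum 32.3% and 22.8%), with a median log2 change of 0.38 (0.21 over the 1558). After 16 h, 16 were higher and 8 lower (all genes 21.6% and 27.7%, the 1558 genes 33.6% and 24.8%), with a median of 0.27 (0.24). Both comparisons share the fed libraries. Without the first or the second fed library 12 or 13 genes were called at 4 h, in place of 26, and without the first fed library 15 at 16 h, in place of 24. The split depends on the scaling: with TPM as deposited it was 5 higher and 12 lower at 4 h and 4 and 20 at 16 h, while rescaling over protein-coding genes gave 10 and 14, and 12 and 10. Scaling moved the median log2 change of all genes from -0.53 to -0.03 at 4 h and from -0.82 to 0.01 at 16 h, and directions below are relative to the scaled medians.

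The largest changes were the same in sign at both times. CG8369 rose from 75.6 and 95.5 scaled TPM in fed to 1258 and 2089 in 4 h and 523 and 599 in 16 h libraries, a log2 change by limma of 4.24 at the earlier time, with an SE of 0.33 and an adjusted p of 0.00023, and of 2.71 at the later one, with an adjusted p of 0.0011. CG12012 rose by 2.60 and 2.32, shep by 1.95 and 2.33, Roc2 by 1.94 and 1.67, CG30414 by 1.62 and 1.83 and CG11151 by 1.59 and 1.60. Phb2 fell from 82.4 and 75.1 to 16.4 and 17.3 and to 12.8 and 11.1, a log2 change by limma of -2.16 and then -2.62, with an SE of 0.16 and adjusted p of 0.00020 and 0.00011. Droj2 fell by 2.09 at 4 h and by 1.38 at 16 h. At 4 h CG11686 rose by 1.91 and CG1648 fell by 1.82, and at 16 h cwo rose by 2.18 and Akt by 1.52. By limma, adjusted p was no longer under the threshold of 0.05 without the second fed library for CG11686 (0.053) and CG1648 (0.053) at 4 h and for Droj2 at 16 h (0.058), nor without the first 16 h library for Droj2 (0.053). With TPM as deposited it was 0.053 for CG11686 and CG11151 at 4 h, and 0.079, 0.081, 0.28 and 0.21 for CG30414, Roc2, CG11151 and Akt at 16 h.

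The share of the gained transcript was also compared between fed and starved wild type. The rule had used its largest wild-type share, so a transcript that became common in 1 wild-type group was less likely to be kept, and the counts are not independent of the choice. In the limma fit of the ratio of a transcript to the others of its gene, 2 of 44 gained transcripts were higher and 2 lower at 4 h (all 5298 transcripts tested 9.48% and 8.32%), and 5 were higher and 3 lower at 16 h (10.9% and 8.4%), which at 16 h is near the share over all transcripts. The filter on mean share took in the mutant libraries, so gained transcripts rare in the wild type passed it only through their mutant share. The counts over the 44 are therefore not like those over all transcripts. The fed mean was above the 16 h mean in 23 of 44. The largest change was that of fon-RA, with a log2 ratio of -1.94 at 4 h and -2.68 at 16 h. By limma the adjusted p was 0.012 and 0.0043 with an SE of 0.32, and the 4 h call was lost without the first fed library (adjusted p 0.072). Phb2-RE changed the other way in limma, with 1.32 at 4 h and 2.27 at 16 h, an SE of 0.29 and adjusted p of 0.028 and 0.0051. Its 16 h call held without each library in turn and with a pseudocount of 0.1. Its 4 h call was lost without either fed, either 4 h or either mutant library (adjusted p 0.058 to 0.14 by limma) and with the smaller pseudocount (0.24). So in fon the starved wild type moved away from the mutant share, and in Phb2 at 16 h towards it.

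Akt-RE fell relative to the other Akt transcripts from a share over 1/2 of the gene, with a log2 ratio of -1.66 at 4 h and -1.54 at 16 h and adjusted p of 0.028 and 0.033 by limma. The 4 h call was lost without either fed, the second 4 h or either 16 h library (adjusted p 0.052 to 0.12 by limma), and the 16 h call without either fed or either 16 h library (0.098 to 0.14). At 16 h shep-RH fell, with -1.10 and an adjusted p of 0.030 by limma, a call lost without either fed, either 16 h or either mutant library (0.061 to 0.14). CG42486-RB was higher by 1.95 with an adjusted p of 0.0081 by limma, and its call was lost without the first 16 h library (0.0501). With a pseudocount of 0.1, none of these calls of Akt, shep and CG42486 passed in limma (adjusted p 0.063 to 0.26).

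The remaining calls by limma were CG1648 at 4 h (1.76) and CG3436 (1.39), LSm3 (1.31) and Mi-2 (1.13) at 16 h, all transcripts near 0 in the wild type. Their mean wild-type shares were 0.443%, 2.54%, 2.36% and 3.41%. They passed the 5% filter on mean share over all 8 libraries only through the mutant, so no conclusion is drawn from these transcripts. Their shares in the groups compared overlap in CG1648, CG3436 and Mi-2, and in LSm3 they were lower at 16 h (0 and 2.06%) than in fed (2.73% and 3.09%). In limma 1 TPM was added to both sides of the ratio, and since the total level of these genes fell, the ratio of a form near 0 comes out higher. None passed with a pseudocount of 0.1, under which LSm3 was at -0.09 with an adjusted p of 0.94 by limma, and they were lost without 7 (CG1648), 5 (CG3436), 6 (LSm3) and each (Mi-2) of the 8 libraries left out in turn.

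No gene of 2 lists, one of cleavage and polyadenylation factors and one of splicing factors, was among the 44, although LSm3, which is in neither list, is a splicing component. The rule leaves out Cpsf symbols, and only 5 genes of the cleavage and polyadenylation list met its level and transcript minimum, of which the rule kept 2.78% over all genes. The nearest to the margin was PNUTS, a phosphatase-targeting subunit, at 16.3 points. Many genes of the splicing factor list did not meet the minimum either, so the absence of both lists is no result about them. In the splicing factor list the nearest were bru1 (15.4), Hrb98DE (15.1) and Hrb87F (14.5). In wild-type starvation, 0 of 19 factors of 3' end formation were higher by limma at 4 h (0 also at an unadjusted p under 0.05) and 9 were lower (all genes 21.1% and 26.6%), and 2 were higher and 10 lower at 16 h (all genes 21.6% and 27.7%). Cpsf6, the partner of Cpsf5, had the largest fall of the list, -1.41 and -1.83, with an SE of 0.14 and adjusted p of 0.00059 and 0.00024 by limma. Pcf11 (0.80) and hrg, a poly(A) polymerase (0.60), rose at 16 h. Of 25 splicing factors, 3 were higher and 12 lower at 4 h and 5 higher and 11 lower at 16 h, to be read against the same shares over all genes. B52, an SR protein, was lowest with -2.49 and -2.503, and mub, a KH-domain RNA-binding protein, was highest with 3.98 and 3.70. Whether these levels bear on the shares of the 44 genes was not tested.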

How the data were processed

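The authors deposited a gene table and a transcript table of TPM values, with 8 library columns that total nearly the same sum each, so depth is unknown. Reads came from libraries of a stranded total RNA kit after removal of ribosomal RNA, per the labels' protocols, and were aligned with STAR 2.5.3 to BDGP6, per the submitters' processing notes. The quantification tool is not given in the sources used here, nor is the annotation. Transcripts were matched by identifier to the Ensembl annotation of BDGP6.54 (34114 of 34485), from which symbols, positions, ends and coding sequences come. The row 7SLRNA:CR32864 took 9.40% to 32.2% of TPM per library, so TPM were divided by a median-of-ratios factor (0.537 to 1.52), which leaves shares as they are.

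In R 4.3.3, limma 3.58.1 was fitted to gene levels as log2(scaled TPM + 1) for 8332 genes with a mean of at least 1, and to isoform use as log2((transcript + 1)/(other transcripts + 1)) for 5298 transcripts whose mean share was 5% to 95% and whose gene had at least 5 TPM. The mean share was taken over all libraries, the mutant ones included. A fold change on this scale understates that of low genes. All 8 libraries entered with 4 group means, 4 residual degrees of freedom and Benjamini-Hochberg adjustment over all features at 0.05. The fits were tested on simulated data. The members and lists were chosen with earlier results of these data known. Every gene is named, and the 12 of largest margin, up to 12 with 3' ends farthest apart past a set distance and the 3 of highest TPM are given per library. Replicates were numbered in accession order.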

Additional observations from a re-analysis of the deposited data

How the results depend on the processing

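The number of genes followed the rule's settings: 160 at a margin of 10 points, 20 at 30, 111 with a minimum of 1 TPM, 13 with 10 TPM, 183 against the 16 h wild type alone, 195 against the fed wild type alone (chosen after seeing the data), 35 with shares summed by 3' end and 14 by 5' start, and 45 to 86 with 1 library left out, highest without a mutant library (86 and 72). Distal and proximal ends numbered 79 and 23 at 10 points, 6 and 5 at 30, 56 and 14 at 1 TPM, 5 and 3 at 10 TPM, 77 and 32 against 16 h alone and 75 and 28 against fed alone, and 22 to 40 and 6 to 11 with 1 library left out. Distal ends outnumbered proximal ones under each of these, narrowly at 30 points. They also did so with tolerances of 10 and 200 nt and with the transcript of largest fall as partner. Among all genes the rule could choose at its minimum of 3 TPM, the less used transcript was already distal in 64.2% of those with differing ends. The distal share of differing ends was below that background at 30 points (54.5%) and with 10 TPM (62.5%). Under the other settings it was 70.6% to 84.2%. Counts of genes called in wild-type starvation were 17 at 4 h with TPM as deposited, and 12 to 24 at 4 h and 15 to 28 at 16 h with 1 library left out. Isoform calls were 2 at 4 h and 2 at 16 h with a pseudocount of 0.1, 14 at 16 h with no filter on share, and 0 to 5 and 3 to 10 with 1 library left out (the 0 without the first fed library, by limma, with 8 at an unadjusted p under 0.05). LSm3 turned from 1.31 to -0.0864 at a pseudocount of 0.1. The arm left with 1 sample is assumed to vary like the others, and the cause of these shifts was not tested. No paired analysis was possible because the labels carry no replicate numbers.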
